A study of Rattus norvegicus with 6 samples.

Results

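The complement system is a cascade of plasma proteins that tags and lyses microbes and clears cell debris. It is started through the classical, lectin or alternative pathway, all of which meet at the cleavage of C3, and it is held in check on host cells by membrane regulators. In bone marrow and other tissues macrophages are a known source of C1q, and myeloid cells carry the receptor for the fragment C5a. The 9 complement components and regulators described here were taken by rat gene symbol: C1qa, C1qb, C1qc, C1s and C2 of the classical pathway, Cfb of the alternative pathway, the central component C3, the receptor C5ar1 and the membrane regulator Cd55. A probe was assigned to a gene when its RefSeq accession, without the version, belonged to that symbol. All 9 genes were found among the 8899 genes with a symbol on the array, with 12 probes in all, and C1qa, C1qc and C1s had 2 probes each.

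The samples were bone marrow cells of male rats aged 8 weeks, kept in osteogenic culture until day 10. Treated cultures received LIPUS, which stands for pulsed ultrasound of low intensity and acts on cells mechanically, and control cultures received none (3 samples each). Both groups shared the osteogenic conditions. RNA of each sample was labelled with Cy3 and hybridised to 1 Agilent rat array, so group means rest on 3 arrays, and that number limits their precision. The labels give neither the strain nor whether replicates came from separate animals or cultures, so p-values measure only the spread between these samples, which may be technical. Levels are given as log2 brightness relative to the 75th percentile of the gene probes of the same array, and a change is LIPUS minus control with its standard error (SE). RNA came from whole cultures, so fewer cells of a type and less RNA per cell cannot be told apart.

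The median spot brightness above background was 112 to 138 on LIPUS arrays and 137 to 168 on control arrays. Between 55.7% and 62.3% of gene spots were above background on LIPUS arrays and between 54.0% and 61.7% on control arrays. The scanner limit was reached by 379 to 449 spots per LIPUS array and by 437 to 529 spots per control array. That limit bears on C1qa and C1qb, whose spots reached it. From the tilt of the scanned grid, control 1 and control 2 were inferred to lie on 1 slide, and control 3 and all 3 LIPUS samples on another. Correlations between arrays ranged from 0.964 to 0.986, a range that does not show whether any array stood apart.

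Promoter windows from RefSeq (build GRCr8, 250 bases before to 50 after the start of transcription) were at hand for 4 of the 9 genes, and all 4 genes lie on the minus strand. They are printed because C1qa and C1qb encode chains of the same protein, while C3 fell and Cd55 rose. The windows are chr5:154407778-154408077 for C1qb, chr5:154419884-154420183 for C1qa, chr9:2201290-2201589 for C3 and chr13:44438052-44438351 for Cd55. Each is written 5′ to 3′ on the strand of its gene, and capitals mark matches to the motifs described after the sequences.
C1qb: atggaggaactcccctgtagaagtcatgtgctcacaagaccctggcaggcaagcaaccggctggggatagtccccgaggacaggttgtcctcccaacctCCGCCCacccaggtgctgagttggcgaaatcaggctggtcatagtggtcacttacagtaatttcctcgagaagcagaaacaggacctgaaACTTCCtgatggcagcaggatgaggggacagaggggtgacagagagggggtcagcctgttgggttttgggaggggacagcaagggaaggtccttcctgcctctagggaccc
C1qa: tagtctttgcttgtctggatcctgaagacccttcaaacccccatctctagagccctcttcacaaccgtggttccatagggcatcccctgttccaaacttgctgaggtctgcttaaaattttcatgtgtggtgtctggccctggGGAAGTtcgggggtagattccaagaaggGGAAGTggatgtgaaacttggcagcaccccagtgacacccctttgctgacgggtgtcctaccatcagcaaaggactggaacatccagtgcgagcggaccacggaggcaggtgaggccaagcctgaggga
C3: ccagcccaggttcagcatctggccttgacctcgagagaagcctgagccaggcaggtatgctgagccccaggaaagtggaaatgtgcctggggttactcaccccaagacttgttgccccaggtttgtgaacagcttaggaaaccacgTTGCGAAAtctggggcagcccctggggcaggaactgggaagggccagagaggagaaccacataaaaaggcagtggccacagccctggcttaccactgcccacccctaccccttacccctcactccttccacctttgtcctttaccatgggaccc
Cd55: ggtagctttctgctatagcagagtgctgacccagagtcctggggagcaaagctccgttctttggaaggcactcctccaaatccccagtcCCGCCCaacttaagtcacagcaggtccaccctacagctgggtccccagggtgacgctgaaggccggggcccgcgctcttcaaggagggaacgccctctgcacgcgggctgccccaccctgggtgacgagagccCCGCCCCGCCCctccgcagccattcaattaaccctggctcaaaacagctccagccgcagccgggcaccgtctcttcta

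5 motifs, picked after the sequences had been read, were searched on both strands: GGAAGT, the core of many ETS family sites including that of PU.1; TTGCNNAA, a core of C/EBP sites; GGGCGG, the GC box; TATAAA, the TATA box; and GAAA repeated after any pair of bases, the core of interferon-stimulated elements. GGAAGT occurred 2 times in the C1qa window and 1 time in the C1qb window, there on the opposite strand as ACTTCC, and 22.6% of 33469 rat promoter windows held it. TTGCNNAA occurred 1 time, in the C3 window, and 10.6% of all windows held it. GGGCGG occurred 1 time in the C1qb window and 3 times in the Cd55 window, always on the opposite strand as CCGCCC, and 2 of the 3 Cd55 matches share a base. The share of all windows with GGGCGG was 33.1%. TATAAA occurred in none of the 4 windows, and 14.2% of all windows held it. The GAAA repeat did not occur in them either, and 3.92% of all windows held it. A match describes the letters of the window and is no evidence that a factor binds there.

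Among the 9 genes, 3 fell (C5ar1, C1qc and C3), 1 rose (Cd55) and 5, among them C1qa and C1qb at the scanner limit, did not pass at a Benjamini-Hochberg adjusted p under 0.05 in limma's fit across 21847 genes and unnamed probes. For comparison, 3.74% of everything tested fell and 2.89% rose, 6.63% together. The median log2 change of the 9 genes was −0.29, against 0.03 for everything tested, and it was −0.34 over the 7 genes whose spots stayed under the limit. Of these 7 genes 5 were below 0, as were 46.0% of everything tested. Among the same 7 genes the LIPUS and control values did not overlap for 6, 4 lower and 2 higher, and 27.2% of everything tested had groups that did not overlap (12.7% lower and 14.4% higher). These counts come from the spot tables, where C1qa and C1qb reached the scanner limit and had no usable estimate. In the authors' deposited value table, whose signals are lower, C1qa and C1qc passed as lower, and C5ar1, C3, Cd55 and the other 4 genes did not pass.

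**Figure D1:**
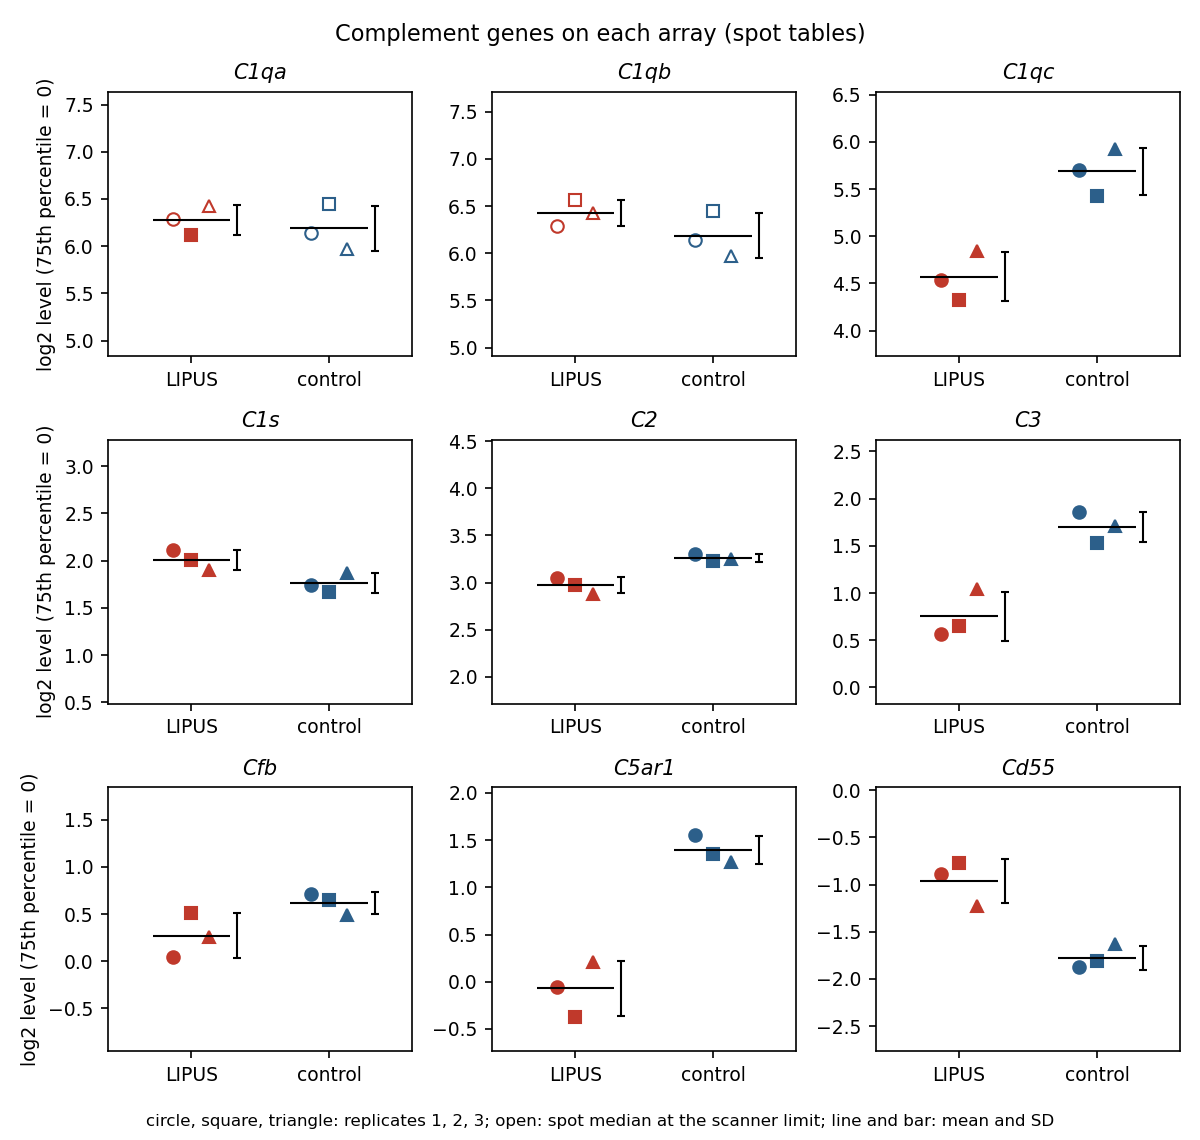
Log2 level of the probe that stood for each of the 9 complement genes on each array (vertical axis, relative to the array's 75th percentile), LIPUS in red and control in blue. Circles, squares and triangles are replicates 1, 2 and 3, lines are means, bars are SD, and open symbols had a spot median at the scanner limit, as for C1qa on 5 arrays and C1qb on 6. C5ar1, C1qc and C3 were lower on all 3 LIPUS arrays than on any control array, and Cd55 was higher.

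C1q is the recognition subunit of the classical pathway, built from A, B and C chains that are each encoded by a gene of their own. In the RefSeq gene order of GRCr8 the 3 genes follow each other on chromosome 5 as C1qb, C1qc and C1qa. C1qc (NM_001008524) was the C1q gene whose spots stayed below the limit. Its brighter probe had log2 levels of 4.54, 4.33 and 4.85 in LIPUS samples, against 5.70, 5.43 and 5.93 in control samples. The highest LIPUS value lay below the lowest control value. The means were 4.57 ± 0.26 in LIPUS samples and 5.69 ± 0.25 in control samples (SD, n = 3 each), a change of −1.12 ± 0.20 (SE) or 2.17-fold lower, with an adjusted p of 0.0107 in limma. No pixel of this spot was at the limit on LIPUS arrays, against 46% of pixels on control 3 and 7% on control 1. Only 310 of the tested genes and probes (1.42%) had a larger fall.

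The second C1qc probe, with no pixel at the limit on any array, was lower in LIPUS samples too. Its log2 levels were 3.56, 3.27 and 3.60 in LIPUS samples, against 4.57, 4.68 and 4.80 in control samples. Its change was −1.21 ± 0.17 (SE), 2.31-fold lower, with an adjusted p of 0.00334 in limma's fit of every probe separately, in which 3.65% of probes fell and 2.86% rose (6.51% together). The authors' value table gave −1.03 ± 0.19 for the brighter probe (adjusted p = 0.0436 in limma) and −1.25 ± 0.20 for the second probe (adjusted p = 0.0346 with every probe tested). All 4 estimates of C1qc thus lay between −1.25 and −1.03.

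C1qa (NM_001008515) could not be measured in the spot tables. The median of its brighter spot was at the scanner limit on 2 LIPUS arrays and on all 3 control arrays, with 60% and 70% of pixels at the limit in LIPUS 1 and LIPUS 3, against 72% to 79% in control samples. On LIPUS 2 the spot was below the limit, at a brightness of 47922 above background. In the authors' value table the signal recovered from the log2 values was 14861, 9638 and 12873 in LIPUS samples, against 42049, 38608 and 36493 in control samples. After the authors' scaling the log2 values were 6.61, 6.29 and 6.63 in LIPUS samples, against 7.67, 7.84 and 7.58 in control samples. The groups did not overlap, as for 28.5% of everything tested in that table (14.5% lower and 14% higher). The means were 6.51 ± 0.19 in LIPUS samples and 7.70 ± 0.14 in control samples (SD, n = 3 each). The change was −1.19 ± 0.17 (SE), 2.27-fold lower, with an adjusted p of 0.0238 in limma's fit of that table, in which 2.37% of everything tested fell and 1.31% rose (3.68% together).

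The second C1qa probe was below the limit on the LIPUS arrays, where its brightness above background was 53633, 34002 and 48401, but at the limit on the 3 control arrays. The spot tables therefore give only a bound for it. This probe was 1.24-fold lower in LIPUS samples in the capped values, which did not pass (adjusted p = 0.379 in limma). In the value table it had log2 values of 6.18, 5.66 and 6.23 in LIPUS samples, against 7.07, 7.35 and 7.01 in control samples. That change was −1.12 ± 0.21 (SE) with an adjusted p of 0.0481 in limma with every probe tested, where 2.36% of probes fell and 1.32% rose (3.67% together). Both C1qa probes and both C1qc probes were thus lower in LIPUS samples in the value table, by 1.03 to 1.25 on the log2 scale. The C1qa call was lost in 5 of the 6 fits that left out 1 array, with adjusted p-values from 0.0454 without control 3 to 0.107 without control 1. The value table's call of the brighter C1qc probe was lost in all 6 such fits, with adjusted p-values from 0.0580 to 0.152 in limma.

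C1qb (NM_019262) reached the scanner limit on every array of the spot tables, with 78% to 82% of pixels at the limit in LIPUS samples and 74% to 84% in control samples. In the value table its recovered signal was 45673, 33315 and 39395 in LIPUS samples, against 65495, 65495 and 65497 in control samples, which is the limit. The control values are therefore lower bounds. Taken from these capped values, the C1qb change was −0.26 ± 0.15 (SE), 1.20-fold lower in LIPUS samples, with an adjusted p of 0.390 in limma. The cap can hide part of a fall, but this estimate did not pass and depended on the scaling. It was −0.074 with the array median (adjusted p = 0.870) and −0.51 with quantile normalization (adjusted p = 0.0895 in limma). After the authors' scaling the LIPUS values lay below all capped control values, as for 14.5% of everything tested in that table. A fall of C1qb was not established, since an estimate from capped control values cannot decide it. Whether the B chain gene moved as far as those of the A and C chains could not be measured.

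**Figure D2:**
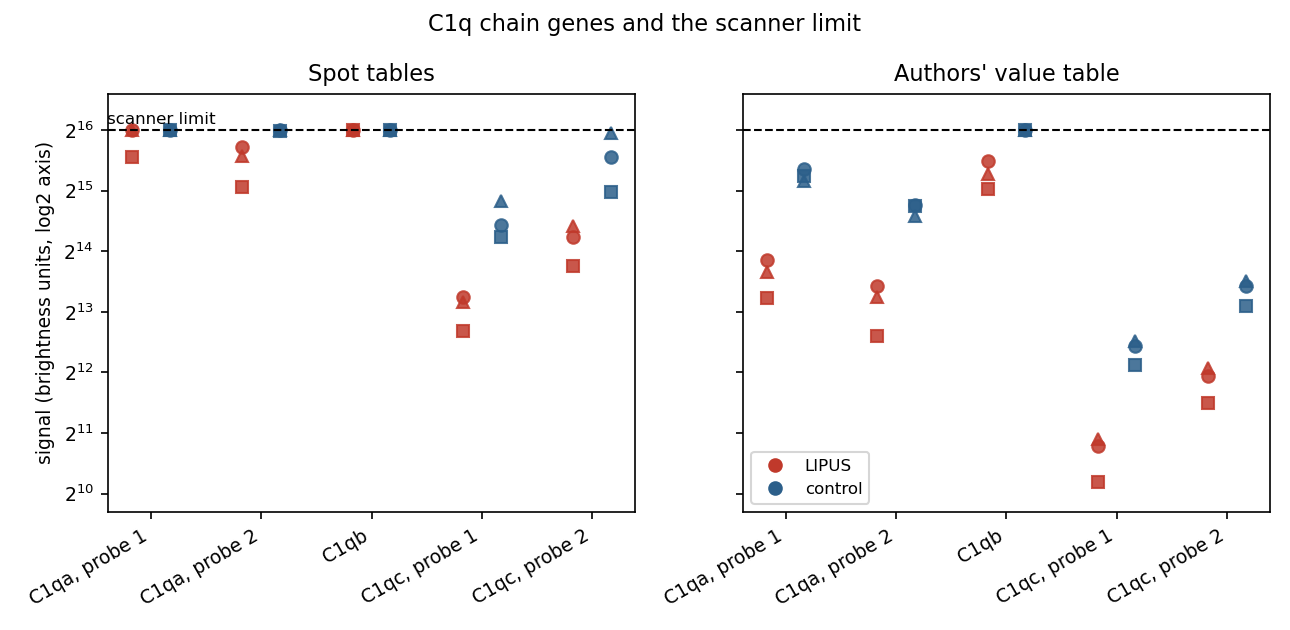
Brightness of the 5 probes of the C1q chain genes on each array (log2 axis), from the spot tables above local background on the left and as recovered from the authors' value table on the right, LIPUS in red and control in blue, with circles, squares and triangles for replicates 1, 2 and 3 and no scaling between arrays. The dashed line is the scanner limit, the highest brightness that can be recorded: on the left it is reached by C1qa probe 1 on 2 LIPUS and 3 control arrays, by C1qa probe 2 on 3 control arrays and by C1qb on 6 arrays, and on the right by C1qb on 3 control arrays alone.

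C1s (NM_138900) encodes the serine protease of the C1 complex that cleaves C4 and C2, and its gene lies next to C1r. The log2 levels of its brighter probe were 2.12, 2.00 and 1.90 in LIPUS samples, against 1.74, 1.66 and 1.87 in control samples. The groups did not overlap, by a narrow margin between LIPUS 3 and control 3. The change of 0.25 ± 0.16 (SE) did not pass, with an adjusted p of 0.403 in limma and a 95% interval of −0.11 to 0.60, and its sign turned to −0.073 when arrays were scaled on spike-in probes. The second C1s probe gave 0.26, 0.35 and −0.16 in LIPUS samples, against −0.23, −0.55 and 0.27 in control samples, which overlapped. Its change was 0.32 ± 0.23 (SE), with an adjusted p of 0.461 in limma.

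C2 (NM_172222) encodes the component that supplies the protease of the classical C3 convertase. It had log2 levels of 3.05, 2.98 and 2.88 in LIPUS samples, against 3.30, 3.23 and 3.25 in control samples. All LIPUS values lay below all control values, but the change of −0.29 ± 0.15 (SE) was small. It had an adjusted p of 0.301 in limma and a 95% interval of −0.63 to 0.05, and the value table gave −0.32 (adjusted p = 0.360 in limma).

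Cfb (NM_212466), the neighbour of C2 on chromosome 20, encodes factor B, which supplies the protease of the alternative pathway convertase. It had log2 levels of 0.05, 0.52 and 0.26 in LIPUS samples, against 0.71, 0.64 and 0.49 in control samples. LIPUS 2 lay above control 3, so the groups overlapped. The change was −0.34 ± 0.18 (SE) with an adjusted p of 0.290 in limma and a 95% interval of −0.74 to 0.05. Scaling on spike-in probes, which shifted the median of everything tested by −0.32, moved it to −0.66 with an adjusted p of 0.0395 in limma. With the scaling on the 75th percentile neither C2 nor Cfb passed.

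C3 (NM_016994) is the component on which the pathways meet, cleaved to C3a and C3b. It had log2 levels of 0.56, 0.65 and 1.04 in LIPUS samples, against 1.85, 1.53 and 1.71 in control samples. The groups were separate, with LIPUS 3 the highest of the LIPUS values. The means were 0.75 ± 0.26 in LIPUS samples and 1.70 ± 0.16 in control samples (SD, n = 3 each), a change of −0.95 ± 0.19 (SE) or 1.93-fold lower, with an adjusted p of 0.0166 in limma. The call was lost without control 1 (adjusted p = 0.0740), without LIPUS 1 (adjusted p = 0.0703) and without LIPUS 2 (adjusted p = 0.0693 in limma). The value table gave a similar estimate, −1.21 ± 0.28 (SE), whose adjusted p of 0.0745 in limma missed the threshold. There C3 varied more among LIPUS samples, with 1.01, 0.25 and 1.21, against 2.03, 1.87 and 2.19 in control samples.

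C5ar1 (NM_053619) is the receptor for the inflammatory fragment C5a on myeloid cells. In the spot tables it had the largest change of the 7 complement genes whose spots stayed under the limit. Its log2 levels were −0.05, −0.37 and 0.21 in LIPUS samples, against 1.56, 1.35 and 1.27 in control samples. More than 1 log2 unit separated the highest LIPUS value from the lowest control value. The means were −0.07 ± 0.29 in LIPUS samples and 1.39 ± 0.15 in control samples (SD, n = 3 each), a change of −1.46 ± 0.19 (SE) or 2.76-fold lower, with an adjusted p of 0.00255 in limma. Only 121 of everything tested (0.554%) had a larger fall. The call held in all 6 fits that left out 1 array, with adjusted p-values from 0.00553 to 0.0163 in limma. The value table gave a smaller estimate, −0.95 ± 0.18 (SE), with an adjusted p of 0.0514 in limma. In that table C3 (−1.21), C1qa (−1.19) and C1qc (−1.03) had larger changes than C5ar1. There its values were 0.51, 0.06 and 0.39 in LIPUS samples, against 1.24, 1.43 and 1.13 in control samples, again with no overlap.

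Cd55 (NM_022269) encodes decay-accelerating factor, a membrane-anchored protein that takes apart C3 and C5 convertases on the cell's own surface. Its probe was dim and was above background on 3 LIPUS arrays and 2 control arrays. Its log2 levels were −0.89, −0.77 and −1.23 in LIPUS samples, against −1.88, −1.81 and −1.63 in control samples. All 3 LIPUS values lay above all control values. The means were −0.96 ± 0.24 in LIPUS samples and −1.78 ± 0.13 in control samples (SD, n = 3 each), a change of 0.81 ± 0.18 (SE) or 1.76-fold higher, with an adjusted p of 0.0259 in limma. A larger rise was seen for 502 of everything tested (2.30%). The call did not hold in 4 of the 6 fits without 1 array, where adjusted p ranged from 0.0308 to 0.105 in limma, nor in the value table, which gave 0.66 ± 0.21 (SE) with an adjusted p of 0.149. Scaling on spike-in probes brought the estimate to 0.49 (adjusted p = 0.119 in limma).

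**Figure D3:**
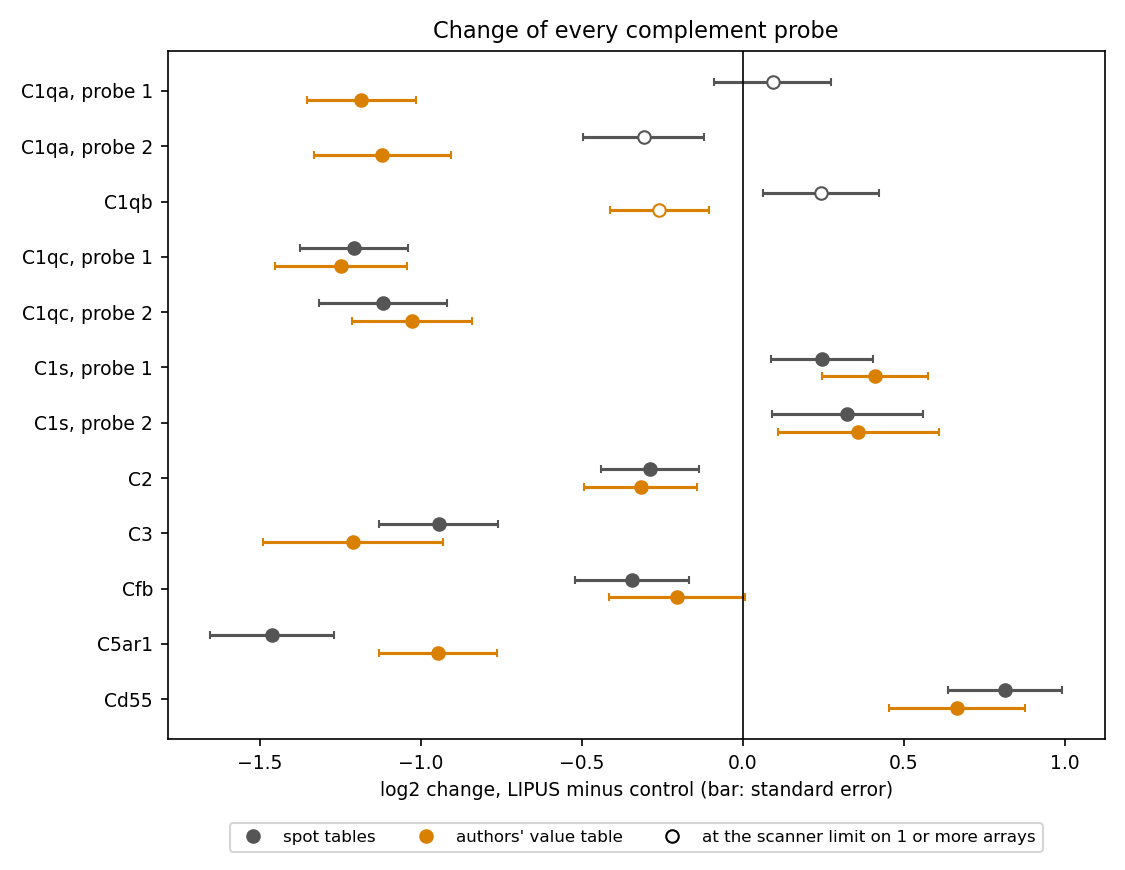
Log2 change (LIPUS minus control, horizontal axis) of each of the 12 complement probes with its SE, from the spot tables in grey and from the authors' value table in orange. Open symbols are probes at the scanner limit on 1 or more arrays of that source. Both probes of C1qa in the value table and both of C1qc in either source lie near −1.2 to −1.0, C2 and Cfb lie closer to 0, and Cd55 lies to the right; C1s probe 1, the brighter one, at 0.25 here, had a change of −0.073 under spike-in scaling.

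The inferred slide overlapped with the groups, since control 1 and control 2 shared a slide that held no LIPUS sample. Within the other slide only control 3 can be set against the 3 LIPUS samples. There the change was −1.34 for C5ar1, −1.36 for C1qc, −0.96 for C3 and 0.67 for Cd55 in the spot tables and −1.07 for C1qa in the value table. Over all 6 arrays these changes were −1.46, −1.12, −0.95, 0.81 and −1.19. In the value table Cd55 had 0.40 within the slide, against 0.66 over all 6 arrays. Control 3 is part of both comparisons, so they are alike in part by construction. With slide as a fixed block none of the 9 genes passed in limma's fit of the spot tables, where 1.29% of everything tested did (0.737% lower and 0.554% higher). The adjusted p-values were then 0.0661 for C5ar1, 0.0589 for C1qc, 0.137 for C3 and 0.220 for Cd55, and C1qa had 0.159 in the value table. With slide as a random block C5ar1 (0.00536), C1qc (0.0142) and C3 (0.0292) kept an adjusted p under 0.05 in limma and Cd55 did not (0.0518), where 2.67% of everything tested fell and 1.96% rose (4.64% together), and C1qa had 0.0372 in the value table.

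**Figure D4:**
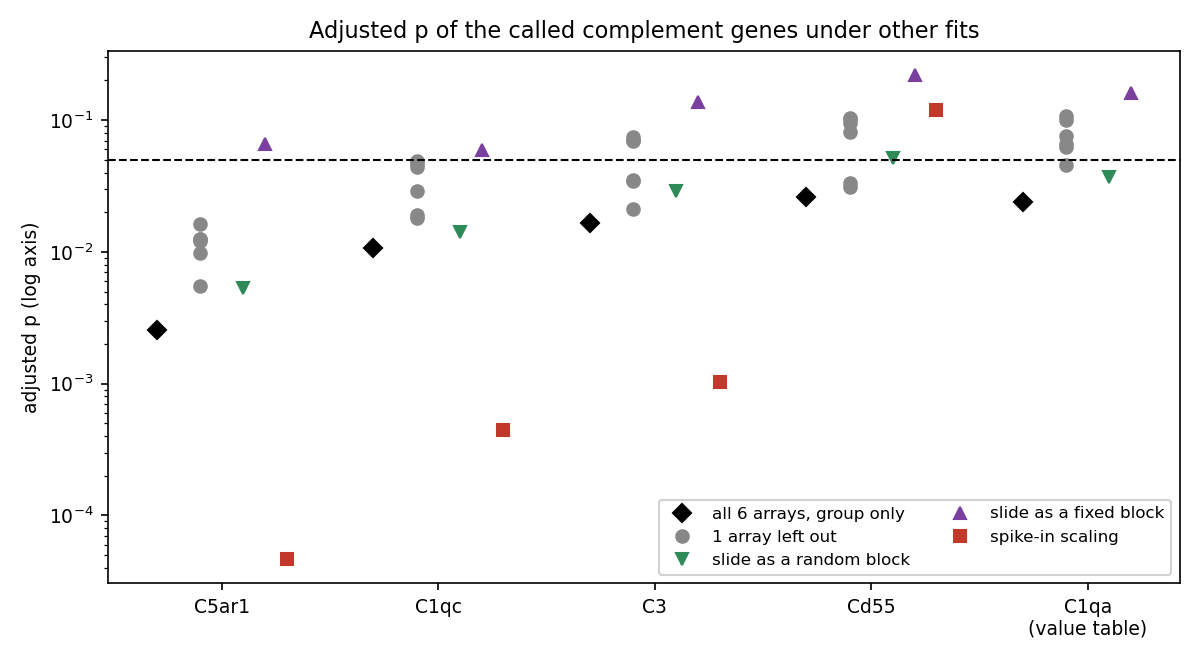
Adjusted p (log axis) of the 5 complement genes called in limma, from the spot tables or, for C1qa, from the authors' value table, in the fit of all 6 arrays with the group alone (black), with 1 array left out (grey), with slide as a random (green) or fixed (purple) block, and with spike-in scaling (red; not run for C1qa). The dashed line is 0.05: all grey points of C5ar1 and C1qc lie below it, 3 of C3, 2 of Cd55 and 1 of C1qa do, and every purple point lies above it.

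A further 42 complement genes were listed as the rest of the system, of which 28 had a symbol on the array and 18 a tested probe. Of these 18, 2 fell, 1 rose and 15 did not pass, where 3.74% of everything tested fell and 2.89% rose. The median change of the 18 genes was −0.01. The 2 that fell were Fcna, ficolin A, a recognition protein of the lectin pathway, and C3ar1, the receptor for the fragment C3a. Fcna averaged 1.57 in LIPUS samples and 3.01 in control samples, a change of −1.44 ± 0.17 (SE) with an adjusted p of 0.0015 in limma. It kept an adjusted p of 0.0331 with slide as a fixed block and of 0.0144 in the value table. C3ar1 averaged −1.57 in LIPUS samples and −0.18 in control samples, a change of −1.39 ± 0.20 (SE) with an adjusted p of 0.00386 in limma. The call of C3ar1 was lost with slide as a fixed block (adjusted p = 0.0559) and in the value table, which gave −2.27 with an adjusted p of 0.0577 in limma.

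The gene that rose was Cfi, factor I, the protease that inactivates C3b and C4b. Its change was 0.84 ± 0.22 (SE) with an adjusted p of 0.04998 in limma. It was above background on 3 LIPUS arrays and 1 control array, and the call was lost in 5 of the 6 fits without 1 array, where adjusted p reached 0.172. The value table gave 0.21 for it (adjusted p = 0.810 in limma). Including Cfi, 8 further regulators were tested, with changes from −0.02 to 0.84 and a median of 0.12. Of 5 further receptors or binding proteins 1 fell, with changes from −1.39 to −0.10 and a median of −0.46. Cfd, the alternative pathway protease, reached the scanner limit on every array, and in the value table its change was −0.77 with an adjusted p of 0.0609 in limma. For C1r, C5, Mbl1, Mbl2 and 20 other listed genes there was no tested probe.

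Of 20 listed marker genes of macrophages and monocytes 12 had a tested probe. Of these, 6 fell and 1 rose, where 3.74% of everything tested fell and 2.89% rose. The other 5, all at the scanner limit on 1 or more arrays, did not pass. The median change of the 12 was −0.55, or −1.32 over the 7 whose spots stayed under the scanner limit. Fcgr2b, an inhibitory Fc receptor, fell by 2.43 on the log2 scale, and the Fc receptor gene Fcgr3a fell by 1.58. Aif1, an actin-binding protein of macrophages, fell by 1.54 and Adgre1, which encodes a surface antigen of mature macrophages, fell by 1.32. Csf1r, the receptor for macrophage colony-stimulating factor, fell by 0.98 and Cd14, a coreceptor for bacterial lipopolysaccharide, fell by 0.88. These 6 genes had adjusted p-values from 0.000406 to 0.0224 in limma, and none of them was below background on any array. Csf1r and Cd14 did not pass in the value table (adjusted p = 0.0539 and 0.0541 in limma). Both lost the call in some fits that left out 1 array, with adjusted p up to 0.0833 and 0.0670 in limma. The calls of Fcgr2b, Fcgr3a, Aif1 and Adgre1 held in those settings. With slide as a fixed block, only Cd14 of the 6 did not pass (adjusted p = 0.0959 in limma).

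The linear levels of the 7 markers under the limit, each relative to the 75th percentile of its array, summed to 33.0 to 39.8 in LIPUS samples and to 84.9 to 94.0 in control samples. The gene that rose, named after its values were seen, was Mpeg1, which was above background on 3 LIPUS arrays and 0 control arrays, and whose difference was 0.03 in the value table (adjusted p = 0.974 in limma). Among the markers at the limit, the value table gave −0.95 for Cd68 (adjusted p = 0.0231) and −1.11 for Tyrobp (adjusted p = 0.0268 in limma). Lyz2, which reached the limit on every array, had a difference of 0.11 there (adjusted p = 0.748). The markers Cd163, Mrc1, Fcgr1a, Trem2, Msr1, Marco, Siglec1 and Ptprc had no tested probe. The part of these markers in the changes of the complement genes was not tested.

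Of 10 tested osteoblast markers 3 rose and none fell in the spot tables, where 2.89% of everything tested rose and 3.74% fell. There 5 of the 10 (Bglap, Col1a2, Mepe, Sparc and Spp1) reached the scanner limit, among them Mepe, 1 of the 3 that rose. Of these 5, 3 rose in the value table, where 1.31% of everything tested did. Mepe rose by 2.89, Spp1 by 2.07 and Bglap by 1.97 (adjusted p = 0.00903, 0.0103 and 0.0135 in limma), and Sparc (0.48) and Col1a2 (0.11) did not pass. Dmp1, a matrix protein of osteocytes and mature osteoblasts, rose by 1.59 ± 0.15 (SE, adjusted p = 0.000784 in limma), and Phex, an endopeptidase of the same cells, rose by 1.29 ± 0.20 (SE, adjusted p = 0.00573). With slide as a fixed block Dmp1 passed (adjusted p = 0.026), and Phex (0.1005) and Mepe (0.0795 in limma) did not. The summed linear level of the osteoblast markers under the limit was 83.3 to 95.7 in LIPUS samples and 55.0 to 57.6 in control samples. Of 4 tested endothelial markers 3 fell, where 3.74% of everything tested did. The summed levels of the 4 were 2.16 to 2.63 in LIPUS samples and 5.72 to 6.32 in control samples. Esam, an adhesion molecule of endothelial junctions, fell by 1.80 (adjusted p = 0.00187 in limma). Ramp2, part of the adrenomedullin receptor, fell by 1.23 (adjusted p = 0.00742) and was above background on 2 LIPUS arrays. Neither passed with slide as a fixed block (adjusted p = 0.0552 and 0.104). In the value table Esam passed (adjusted p = 0.0122) and Ramp2 did not (0.202 in limma). The other endothelial gene that fell passed with slide as a fixed block (adjusted p = 0.036) and not in the value table (0.110 in limma). Of 10 tested genes of the interferon response 2 fell, where 3.74% of everything tested did. They were the immunoproteasome subunit Psmb9, by 1.31 (adjusted p = 0.00298), and the guanylate-binding protein Gbp2, by 0.70 (0.0238 in limma). Neither passed in the value table (adjusted p = 0.0769 and 0.0725) or with slide as a fixed block (0.0682 and 0.115 in limma).

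Among markers of other blood cells and of adipocytes, 2 genes passed, both higher, where 2.89% of everything tested rose. Of 2 tested neutrophil markers S100a8 rose, by 0.99 (adjusted p = 0.0209 in limma), and the difference of Prtn3 was 0.04. S100a8 did not pass in the value table (adjusted p = 0.111) or with slide as a fixed block (0.159 in limma). Its call was also lost without control 1, without LIPUS 1 and without LIPUS 2. None of 4 lymphocyte markers passed, with the smallest adjusted p at 0.0504 for Cd4, at a difference of −0.91, and Cd2 had 0.60 (adjusted p = 0.195 in limma). Of 6 adipocyte markers 1 rose, the lipid droplet gene Cidec by 1.09 (adjusted p = 0.00807 in limma). Cidec passed in the value table (adjusted p = 0.0140) and not with slide as a fixed block (0.124 in limma). Fabp4, which reached the scanner limit, had a difference of 0.21 in the value table (adjusted p = 0.466 in limma). The part of these cell types in the complement results was not tested either.

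**Figure D5:**
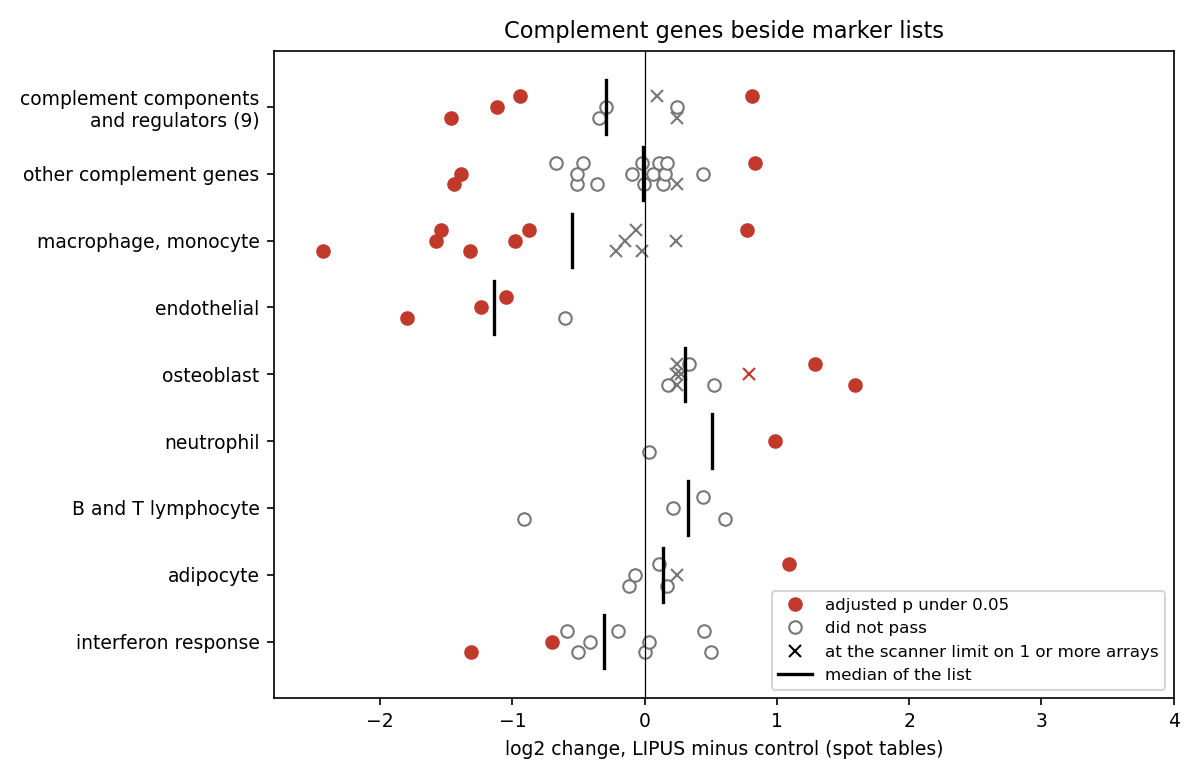
Log2 change (LIPUS minus control, horizontal axis) of each tested gene of the 9 complement genes, the further complement genes and 7 lists of marker genes, from the spot tables. Red points passed in limma, open points did not, crosses were at the scanner limit on 1 or more arrays (red where they passed), and bars are list medians. C5ar1, C1qc and C3 lie between −1.46 and −0.95 and the 6 fallen macrophage markers between −2.43 and −0.88, while Cd55, Cfi and Mpeg1 lie to the right of 0.

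By Pearson correlation over the 6 arrays, the genes with a symbol whose levels were most like those of C5ar1 were Slc7a3 (r = 0.999), a transporter of cationic amino acids, Tmem176b (r = 0.998) and Igsf6 (r = 0.998). Their changes were −2.11, −1.34 and −1.83, all past the threshold. The genes most like C1qc were Rgs4 (r = 0.999), Nos3 (r = 0.994) and Ltb (r = 0.993), of which Ltb passed, with a change of −0.76. Those most like C3 were Plcb1, Ccnd1 and Tinagl1 (r from 0.990 to 0.993), and those most like Cd55 were Araf, Arf4 and Ptges (r from 0.992 to 0.994), of which Ptges rose by 0.79. The genes most like C2 were Dpy30, Eml2 and Cxcl14, those most like C1s were Erp29, Sra1 and Rnase4, and those most like Cfb were Chn2, Nutf2 and Gpm6b, with r from 0.971 to 0.997. With 6 arrays in 2 groups, any gene that differs between the groups correlates with any other, so these values only describe likeness.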

How the data were processed

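Each of the 6 samples has a deposited spot table. Per the file headers it gives spot and local background brightness as intensity, with no normalization, the percent of pixels at the scanner limit, and a score for position and spot quality. The authors' deposited value table is on a log2 scale, as found from its values: each column has its 75th percentile at 0 and, with the column minimum subtracted and the log undone, 98.7% to 98.9% of values are whole within 0.01. How it was made is not given in the sources used here, and its centring and background handling remain unknown.

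Spot medians were corrected with limma's normexp (offset 50), put on the log2 scale and set to each array's 75th percentile. The columns of Agilent's own software that the plan assumed were not present. Probes above the 95th percentile of 153 negative control spots on 3 or more of 6 arrays were kept (23260 of 41012 probes; all 12 complement probes passed). The brightest probe stood for a gene, with every probe as an alternative. Symbols came from RefSeq (GRCr8, for names only) for 10768 probes. limma (lmFit and eBayes, 3.58.1, R 4.3.3) compared LIPUS with control, two-sided, group only, with Benjamini-Hochberg adjustment over 21847 genes and unnamed probes, of which 5697 had a symbol. The fit was tested on simulated data. Python 3.11.15 with pandas 2.3.3 and matplotlib 3.10.9 served for tables and plots. For probes at the scanner limit the value table was used with the same fit, a choice extended after the data were seen.

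The 9 genes, the gene lists and the rule for names were chosen with earlier results of these data known. That rule names all 9 genes with every probe, each further complement gene that passed, up to 6 macrophage markers and up to 2 genes of each other list with the smallest p, and the 3 genes most correlated with each measured complement gene under the limit. Alternatives covered the background correction, scaling, filter, probe choice, source of values, slide, replicate block and each array left out.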

Additional observations from a re-analysis of the deposited data

How the results depend on the processing

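The complement calls rested on 3 arrays per group. In the spot tables those of C5ar1 and C1qc held in every fit that left out 1 array, and those of C3 and Cd55 did not. Against 1449 genes and probes called over all, limma called 3336 with spike-in scaling (which shifted the median of everything tested by −0.32, so that 6.8% of calls were higher, against 43.6%), 655 with no filter on dim probes, 805 in the authors' value table and 282 with slide as a fixed block. Scaling on the array median left 32.3% of 1462 calls higher, and 35.6% of calls were higher in the value table. Within slide 2 only, limma called 0, with 3339 at an unadjusted p under 0.05. Leaving out 1 array gave 2168 calls without control 3 and 642 to 792 calls without any other array. The 3 lower complement genes became 0 with slide as a fixed block and 0 on slide 2 only, and 2 to 3 with 1 array left out. The 1 higher gene, Cd55, became 0 with no background subtraction, spike-in scaling, no filter, the filter on all 6 arrays (which removes its probe), the value table, slide as a fixed or random block and slide 2 only, and 0 to 1 with 1 array left out. C1qc also missed the threshold after quantile normalization (adjusted p = 0.0504), C3 with no filter (0.0552), and C1qa in the value table with the array median (0.0738) or no filter (0.124 in limma). The change of C1s turned from 0.25 to −0.073 under spike-in scaling. Causes were not tested. The spots of C1qa and C1qb lack a measurable upper range.

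Same-numbered samples did not deviate together (r = 0.001, 0.009 and −0.012). With 3 arrays per group this does not show whether they shared an animal or culture. A fit with the replicate block called 1175, with 3 complement genes lower and 1 higher, and C1qa in the value table had an adjusted p of 0.122 in limma.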
